A study of Mus musculus with 12 samples.

Results

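The endoplasmic reticulum (ER) chaperone BiP, encoded by Hspa5, was examined together with 9 genes of the same folding machinery in the mouse hippocampus across the circadian day. The 10 genes were Hspa5, Hsp90b1, Sdf2l1, Manf, Creld2, Dnajb11, Dnajc3, Hyou1, Calr and Canx, out of 24090 genes measured. They were taken by name, as every probe the array assigns to one of them. They had been picked with their high values at circadian time (CT) 18 in these same mice already known, so all CT18 values below are descriptions and carry no test. The 10 genes had 11 probes, and all 10 genes passed the filter on dim probes. A second Dnajb11 probe was well above background on 1 of 12 arrays only and was not used.

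Hippocampal RNA of 12 adult male wild-type mice had been hybridised singly to Agilent arrays of 1 colour. Mice were kept in constant darkness and sampled 3 at a time at CT0 after 36 h in darkness, CT6 after 42 h, CT12 after 48 h and CT18 after 30 h. The design asks which genes change with circadian time when no light change can drive them. CT18 also had the shortest darkness, and each time lay at one array position on all 3 slides, so circadian time, hours in darkness and position cannot be told apart.

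BiP is the Hsp70 of the ER lumen. It binds unfolded chains in a cycle of ATP hydrolysis that J-domain co-chaperones start and nucleotide exchange factors end, and it also holds the sensors of the unfolded protein response inactive. When those sensors fire, the transcription factors ATF6 and XBP1 raise chaperone genes through the ER stress response element (ERSE), and in neurons this machinery folds the many receptors, channels and secreted peptides that pass through the ER.

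Promoter sequences of the genes are shown first, since the ERSE is a known element of this family. RefSeq promoter windows of build GRCm38.p6, running from 250 bases before to 50 after each annotated gene start, were at hand for 8 of the 10 genes, all but Manf and Hyou1. Both strands were searched for exact letters. The ERSE, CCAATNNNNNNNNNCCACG, is a CCAAT box and a CCACG box set 9 bases apart. It was present in 6 of the 8 windows (Hspa5, Hsp90b1, Creld2, Dnajc3, Calr and Canx) and in 0.119% of all 32851 windows. The ERSE was looked for because it is known from this family, so this count is a description and no test. Hsp90b1 held 2 copies. The shorter ERSE-II, ATTGGNCCACG, which holds a CCAAT box on the opposite strand, was found in Dnajb11 and in 0.0365% of all windows. Each site is written on the gene strand with its flanks, and capitals mark the motif, which reads as its reverse complement where it lies on the opposite strand.

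Hspa5 (chr2:34772015-34772053, plus strand): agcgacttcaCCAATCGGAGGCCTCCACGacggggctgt
Hsp90b1 upstream copy (chr10:86705628-86705666, minus strand): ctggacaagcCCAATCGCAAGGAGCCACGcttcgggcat
Hsp90b1 downstream copy (chr10:86705523-86705561, minus strand): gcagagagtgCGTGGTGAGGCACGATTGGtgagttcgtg
Creld2 (chr15:88819510-88819548, plus strand): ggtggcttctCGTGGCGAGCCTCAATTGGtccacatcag
Dnajc3 (chr14:118937817-118937855, plus strand): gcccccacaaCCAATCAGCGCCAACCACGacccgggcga
Calr (chr8:84847065-84847103, minus strand): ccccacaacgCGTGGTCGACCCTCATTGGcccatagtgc
Canx (chr11:50325790-50325828, minus strand): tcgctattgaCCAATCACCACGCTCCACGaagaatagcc
Dnajb11, ERSE-II (chr16:22857843-22857871, plus strand): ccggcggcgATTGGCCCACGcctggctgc

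A CCAAT box alone was found in all 8 windows, against 37.4% of all windows. Sdf2l1, a component of the BiP co-chaperone complex, was the one gene of the 8 whose window held neither the ERSE nor the ERSE-II letters, although it had 3 CCAAT boxes, over both strands, in the 250 bases before its start. Its upstream sequence and that of Hspa5 are given whole, because these genes had the largest differences at CT18. Capitals in the Hspa5 line mark the ERSE.

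Hspa5 upstream (chr2:34771840-34772089, plus strand): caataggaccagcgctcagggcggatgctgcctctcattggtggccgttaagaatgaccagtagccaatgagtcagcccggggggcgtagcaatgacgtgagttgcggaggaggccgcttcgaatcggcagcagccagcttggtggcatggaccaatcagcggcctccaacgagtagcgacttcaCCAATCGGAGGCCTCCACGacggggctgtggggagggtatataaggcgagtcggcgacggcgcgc
Sdf2l1 upstream (chr16:17132384-17132633, minus strand): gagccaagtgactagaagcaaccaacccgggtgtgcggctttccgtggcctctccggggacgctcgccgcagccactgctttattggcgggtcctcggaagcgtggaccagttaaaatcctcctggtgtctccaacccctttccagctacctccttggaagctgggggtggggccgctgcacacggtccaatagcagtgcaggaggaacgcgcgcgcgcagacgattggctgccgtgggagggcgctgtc

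The circadian E-box CACGTG was found in Calr only, against 7.15% of all windows. TGACGT, the core bound by CREB and ATF proteins, was in Hspa5, Dnajb11 and Canx, against 7.51% of all windows. Its longer form TGACGTGG, which contains TGACGT, was in none of the 8 and in 0.676% of all windows. A match here is a string of letters in a window and no evidence of binding.

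**Figure D1:**
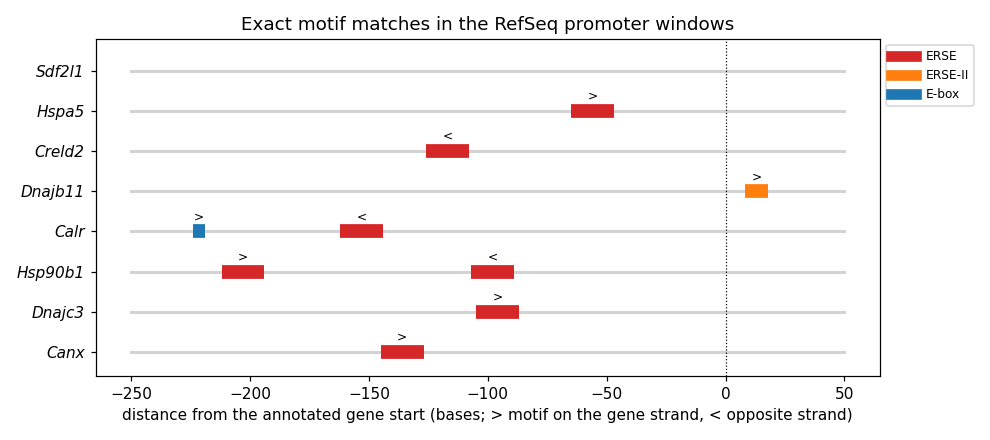
Exact motif matches in the promoter windows of the 8 genes with a RefSeq entry, by distance in bases from the annotated gene start (dotted line). Red bars are ERSE, the orange bar is ERSE-II and the blue bar is the E-box. ERSE copies lie upstream of the start in 6 genes, the ERSE-II of Dnajb11 lies 8 to 18 bases after it, and Sdf2l1 has none of the 3 motifs.

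On each array 59.3 to 77.1% of 59305 spots were well above background and no spot was saturated. The number of arrays, 3 a time, limits the precision. CT0 mouse 3 had the 77.1%, with 67.1% next in CT12 mouse 10. CT0 mouse 1 had a median local background of 100, against 25 to 37 on the other arrays. The part of these 2 arrays in the CT0 values was not tested beyond leaving single libraries out. The library labelled CT12 mouse 11 stood apart. Its gene values correlated with those of the other libraries at r = 0.945 to 0.965, while the other 11 correlated with each other at 0.984 or more over 24090 genes. The median of its 12 hippocampal excitatory neuron markers lay at -3.84 log2 around each gene's mean, and that of 6 cerebellar markers at 5.29, which goes against the label. CT12 mouse 10 departed in part: its 7 thalamus markers summed to 36.1 in units of the array's 75th percentile, against 13.9 in CT12 mouse 11 and 4.61 to 6.73 in the other 10 libraries. Its excitatory neuron markers summed to 75.1. Choroid plexus markers, 9 measured of 11 listed, were high in 5 libraries, namely CT0 mouse 1, CT6 mouse 7, CT12 mice 10 and 11 and CT18 mouse 14. The summed choroid plexus markers ranged from 22.6 to 144 at CT18, against 25.5 to 276 at CT0, 22.6 to 148 at CT6 and 26.5 to 210 at CT12. The summed excitatory neuron markers ranged from 108 to 123 at CT18, against 101 to 116 at CT0, 101 to 110 at CT6 and 25.3 to 106 at CT12. The part of tissue makeup in the results was not tested beyond leaving these libraries out. In bulk tissue, a change in the share of a cell type and a change of RNA per cell cannot be told apart.

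Levels below are log2 intensities relative to the 75th percentile of the same array, so a difference of 1 is a doubling. Brightness depends on the probe, so each gene is compared only with itself. The CT18 excess of a gene is its CT18 mean minus the mean of its CT0, CT6 and CT12 means, with the standard error (SE) of the fit over 12 arrays.

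All 10 ER chaperone genes had their highest mean at CT18, against 25% of all genes. The excess at CT18 had a median of 0.57 log2 over the 10 genes, against -0.01 over all genes, and it ran from 1.56 for Sdf2l1 to 0.10 for Canx. In 7 of the 10 genes every CT18 mouse lay above all 9 other mice, a pattern that 2.33% of all genes had. The exceptions were Dnajc3, Calr and Canx. Without the library labelled CT12 mouse 11 the count was again 7 of 10, against 3.35% of all genes. Without the 5 libraries with high choroid plexus markers it was 8 of 10 with 2 CT18 mice against 5 others, where 10.3% of all genes had the pattern. These counts describe what the genes were chosen for.

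Hspa5, BiP itself, measured 4.66, 4.47 and 4.27 in the CT0 mice (numbers 1, 2 and 3), and 3.99, 4.12 and 4.07 in the CT6 mice (5, 6 and 7). It measured 4.16, 4.37 and 4.33 in the CT12 mice (10, 11 and 12), and 5.32, 5.35 and 5.52 in the CT18 mice (14, 15 and 16). All 3 CT18 mice lay at least 0.66 above the highest other mouse, and CT6 was the lowest group, apart from both CT0 and CT12. The CT18 excess was 1.12 ± 0.10 (SE), or 2.18-fold. Against single times, CT18 was 2.52-fold CT6, 1.91-fold CT0 and 2.15-fold CT12. The probe lies at chr2:34631913-34631972 in mm9.

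Dnajb11 and Dnajc3 encode J-domain co-chaperones that hand clients to BiP and start its ATP hydrolysis. Dnajb11 measured 2.55, 2.61 and 2.51 at CT0 and 2.37, 2.54 and 2.48 at CT6. It measured 2.34, 2.36 and 2.65 at CT12 and 2.94, 3.05 and 3.1 at CT18. The other 3 times overlapped within 0.31 log2 of each other and every CT18 mouse lay above them, for an excess of 0.54 ± 0.09 (1.45-fold). The Dnajb11 probe lies at chr16:22872067-22872126 in mm9.

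Dnajc3 was more uneven. It measured 1.69, 1.25 and 1.27 at CT0 and 1.10, 1.11 and 1.31 at CT6. It measured 1.59, 1.63 and 1.23 at CT12 and 1.92, 1.64 and 1.78 at CT18. The lowest CT18 mouse fell 0.05 short of the highest CT0 mouse, and the excess was 0.43 ± 0.13 (1.34-fold). At 4 of 4 times the mouse with the highest Dnajc3 was one with high choroid plexus markers, and libraries with high markers exceeded the others of their time by 0.31 on average. Without those 5 libraries the excess was 0.51 ± 0.08. The Dnajc3 probe lies at chr14:119378131-119378190 in mm9.

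Sdf2l1, which joins Dnajb11 in a complex that keeps unfolded chains soluble, had the largest excess. It measured 0.17, -0.25 and -0.40 at CT0 and -0.76, -0.67 and -0.61 at CT6. It measured -0.46, -0.41 and -0.33 at CT12 and 1.02, 1.10 and 1.32 at CT18. The lowest CT18 mouse was 0.85 above the highest other mouse, CT0 mouse 1, and CT6 lay below CT12 in every mouse. The excess was 1.56 ± 0.12 (2.95-fold), and CT18 was 3.55-fold CT6. The Sdf2l1 probe lies at chr16:17130426-17130485 in mm9.

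Hyou1 encodes GRP170, a large Hsp70-like protein that exchanges the nucleotide of BiP. It measured -2.19, -2.18 and -2.23 at CT0 and -2.21, -2.50 and -2.54 at CT6. It measured -2.57, -2.78 and -2.54 at CT12 and -1.72, -1.97 and -1.73 at CT18. The CT12 mice lay below the CT0 mice and reached up to the CT6 mice, whose lowest also had -2.54, and CT18 lay above all of them, with an excess of 0.61 ± 0.10 (1.53-fold). The Hyou1 probe, at chr9:44199354-44199413 in mm9, gave an excess of 0.33 with the normexp background correction.

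Manf encodes a small secreted factor that binds BiP and slows its nucleotide exchange. It measured 1.52, 1.25 and 1.15 at CT0 and 0.95, 1.20 and 1.05 at CT6. It measured 1.22, 1.38 and 1.31 at CT12 and 2.21, 2.14 and 2.32 at CT18. Every CT18 mouse exceeded the highest other mouse by 0.62 or more, for an excess of 1.0 ± 0.10 (2.0-fold), and CT6 lay below CT12 in every mouse. The Manf probe lies at chr9:106791278-106791337 in mm9.

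Creld2 encodes an ER-stress-inducible ER protein with epidermal growth factor-like repeats. Its probe was printed in 10 spots, whose median SD on one array was 0.07. Creld2 measured 3.13, 2.70 and 2.77 at CT0 and 2.63, 2.77 and 2.70 at CT6. It measured 2.91, 3.11 and 2.92 at CT12 and 3.74, 3.58 and 3.69 at CT18. The CT18 mice stood at least 0.448 above the rest and the CT12 mice above the CT6 mice, and the excess was 0.82 ± 0.10 (1.77-fold). The Creld2 probe lies at chr15:88656997-88657056 in mm9.

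Hsp90b1 encodes GRP94, the Hsp90 of the ER, which folds integrins and Toll-like receptors downstream of BiP. It measured 4.47, 4.48 and 4.37 at CT0 and 4.14, 4.20 and 4.19 at CT6. It measured 4.06, 4.26 and 4.12 at CT12 and 4.70, 4.60 and 4.78 at CT18. CT0 lay above CT6 and CT12 in every mouse, and CT18 lay at least 0.126 above CT0. The excess was 0.44 ± 0.07 (1.36-fold), and CT18 was 1.20-fold CT0 against 1.46-fold CT12. The Hsp90b1 probe lies at chr10:86153770-86153829 in mm9.

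Calr and Canx encode the lectin chaperones calreticulin, which is soluble in the lumen, and calnexin, its relative in the membrane; both hold glycoproteins that carry a trimmed glucose. Calr measured 4.24, 4.36 and 4.04 at CT0 and 3.91, 3.99 and 3.83 at CT6. It measured 3.76, 3.65 and 3.77 at CT12 and 4.56, 4.31 and 4.54 at CT18. CT18 mouse 15 lay 0.04 below CT0 mouse 2, so these 2 times overlapped, while CT12 was below all other times. The excess was 0.52 ± 0.09 (1.44-fold), with CT18 at 1.68-fold CT12 and 1.20-fold CT0. The Calr probe lies at chr8:87366192-87366251 in mm9.

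Canx had the smallest CT18 excess of the 10. It measured 4.79, 5.14 and 4.82 at CT0 and 4.91, 5.21 and 5.0 at CT6. It measured 4.77, 5.14 and 4.98 at CT12 and 4.96, 5.19 and 5.07 at CT18. All 4 times overlapped, and the excess of 0.10 ± 0.11 (1.07-fold) was smaller than its SE. The Canx probe lies at chr11:50108047-50108106 in mm9. Canx and Calr both held the ERSE letters shown above, and their CT18 excess was 0.10 and 0.52. Whether the letters bear on the excess was not tested.

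**Figure D2:**
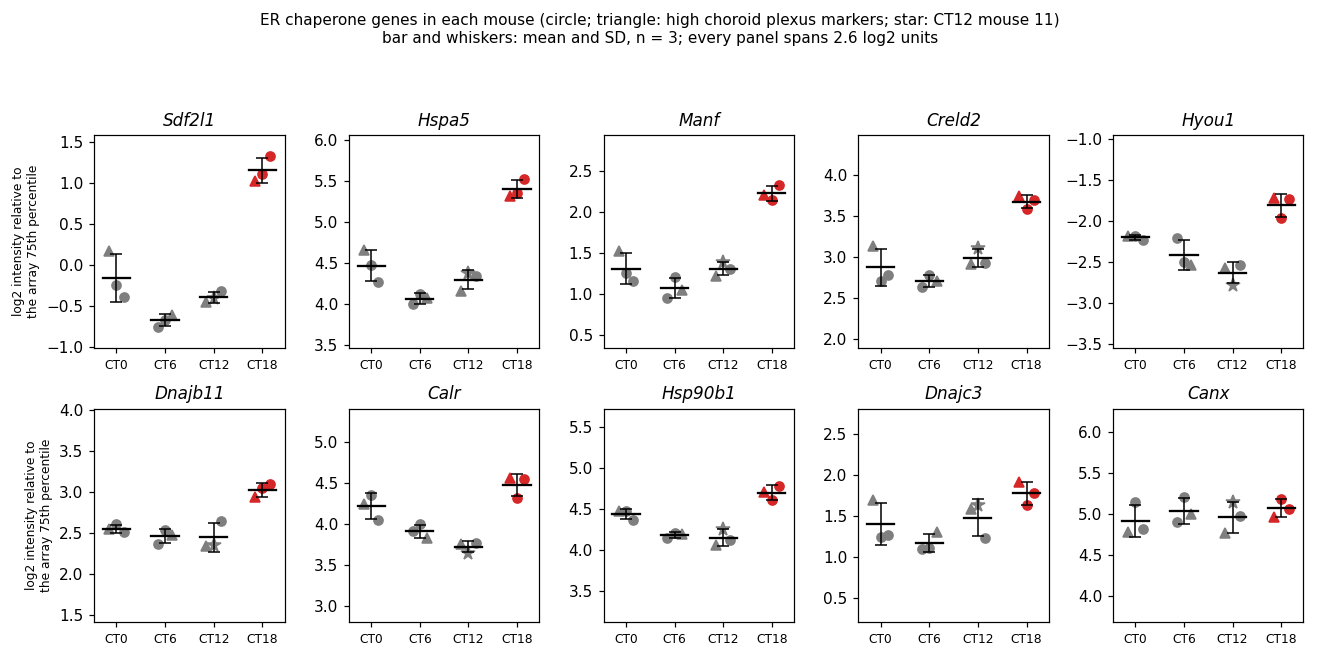
Log2 intensity of the 10 ER chaperone genes relative to the array's 75th percentile in each mouse at CT0, CT6, CT12 and CT18; bars and whiskers are mean and SD of 3 mice. Triangles are libraries with high choroid plexus markers and the star is CT12 mouse 11, which also had them. CT18 (red) is the highest mean in all 10 panels and stands clear of all other mice in 7.

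Ranked by excess, the genes ran Sdf2l1, Hspa5, Manf, Creld2, Hyou1, Dnajb11, Calr, Hsp90b1, Dnajc3 and Canx. The first 4 kept these ranks in every setting and with every single library left out. From Hyou1 at 0.61 to Dnajc3 at 0.43 neighbours differed by about their SE or less, and their order changed with the setting. BiP and its partners Sdf2l1 and Manf were among the first 4, while its partners Hyou1 and Dnajb11 had ranks 5 and 6. The BiP co-chaperone Dnajc3 was among the last 4, with the lectins and Hsp90b1.

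The excess was also taken within each slide. These are the same mice, and the genes were chosen for CT18, so the counts describe that choice again. Genes on one slide are not replicates of each other, and the share over all genes was not counted. Each slide carried 1 mouse of each time, and the excess was above 0 in 30 of 30 pairs of gene and slide, with medians of 0.54, 0.68 and 0.60 on slides 1, 2 and 3. Sdf2l1 had 1.55, 1.77 and 1.37 on these slides, Hspa5 had 1.02, 1.30 and 1.05, and Canx had 0.03, 0.13 and 0.14. CT18 exceeded CT12 in 30 of 30 pairs, CT6 in 29 of 30 and CT0 in 29 of 30. The exceptions were Canx on slide 1, at -0.02 against CT6, and Calr on slide 1, at -0.04 against CT0. Without the library labelled CT12 mouse 11 the median excess of the 10 genes was 0.55, with Sdf2l1 at 1.56 and Hspa5 at 1.14. Without the 5 libraries with high choroid plexus markers it was 0.52, with Sdf2l1 at 1.67 and Hspa5 at 1.18.

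**Figure D3:**
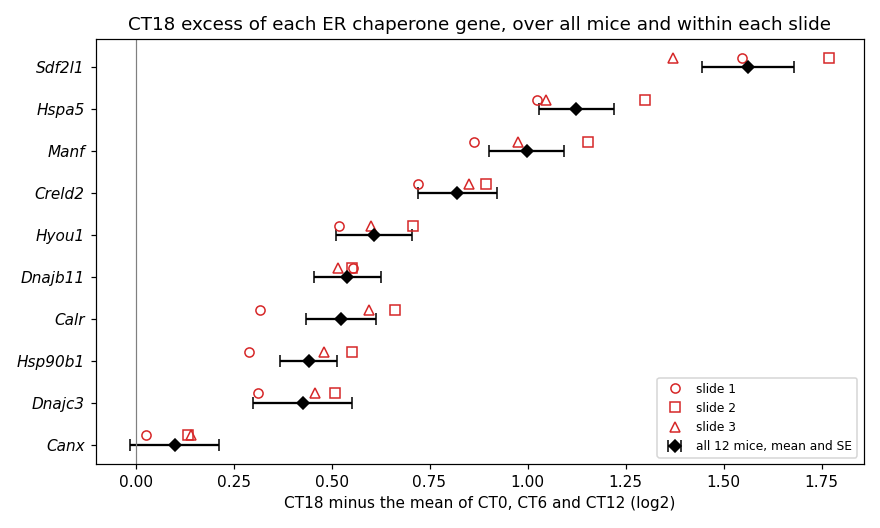
CT18 mean minus the mean of the CT0, CT6 and CT12 means, in log2, for each gene over all 12 mice (black, with SE) and within each of 3 slides (red, 1 mouse a time). All 30 red symbols lie above 0, and the genes run from 1.56 for Sdf2l1 to 0.10 for Canx.

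The genes were also compared between the other 3 times. These comparisons hold no CT18 sample, but genes picked for standing high at CT18 over the other times, CT6 among them, were picked partly on CT0, CT6 and CT12 values. The directions and counts below are therefore no independent evidence. The limma fit called none of the 10 in any of the 3 comparisons at an adjusted p under 0.05 over all 24090 genes. These p-values set each difference against the spread between mice of the same time, pooled over all times. As each mouse had its own array, that spread also holds differences between arrays and in tissue makeup.

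CT6 against CT0 came out mostly negative. The CT6 means were below those of CT0 in 9 of 10 genes, all but Canx, with a median of -0.23 against 0.00 over all genes. An unadjusted limma p under 0.05 was found for 4 of them, all lower at CT6. Their differences were -0.52 ± 0.14 (SE) for Sdf2l1, -0.40 ± 0.12 for Hspa5, -0.30 ± 0.11 for Calr and -0.26 ± 0.09 for Hsp90b1, beside 1.54% of all genes lower at that p. In each of these 4 genes the 3 CT6 mice lay below the 3 CT0 mice, as in 5.07% of all genes. The limma adjusted p was 1.0 for every one of the 10 genes, and 0% of all genes were called. Without the libraries with high choroid plexus markers, 1 of the 10 had an unadjusted p under 0.05.

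At CT12 against CT0, the differences farthest from 0 belonged to Calr, Hyou1 and Hsp90b1, at -0.49 ± 0.11, -0.43 ± 0.12 and -0.29 ± 0.09, with no overlap between mice (7.77% of all genes in that direction) and unadjusted p under 0.05. Their limma adjusted p-values were 0.219, 0.322 and 0.353, so none passed; 0.0623% of all genes were called, and 7.02% were lower at that unadjusted p. The limma adjusted p of the other 7 genes lay at 0.507 or above, with differences from -0.24 for Sdf2l1 to 0.11 for Creld2. Without the library labelled CT12 mouse 11 the counts were the same, 0 called and 3 unadjusted, as they were without CT12 mouse 10. Leaving out the libraries with high choroid plexus markers left only mouse 12 at CT12, too few to give counts for this comparison.

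At CT12 against CT6, 5 genes had the higher mean at CT12 and 5 the lower. Creld2 had 0.28 ± 0.12, the one unadjusted p under 0.05 (limma adjusted p = 0.423), against 11.8% of all genes at that p and 0.0208% called. Sdf2l1 had 0.28 ± 0.14, Manf 0.23 ± 0.12 and Hspa5 0.23 ± 0.12, and in each of these 4 genes the CT12 mice lay above the CT6 mice, as in 6.11% of all genes. Hyou1 had -0.21 ± 0.12 and Calr -0.19 ± 0.11, with all CT12 mice below the CT6 mice, as in 9.89% of all genes. Without the library labelled CT12 mouse 11, 0 of the 10 were called and 0 had an unadjusted p under 0.05, and without CT12 mouse 10 the counts were 0 and 1. By mean, Hspa5, Sdf2l1, Manf, Creld2 and Dnajc3 were thus lowest at CT6, while Hsp90b1, Dnajb11, Hyou1 and Calr were lowest at CT12 and Canx at CT0.

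**Figure D4:**
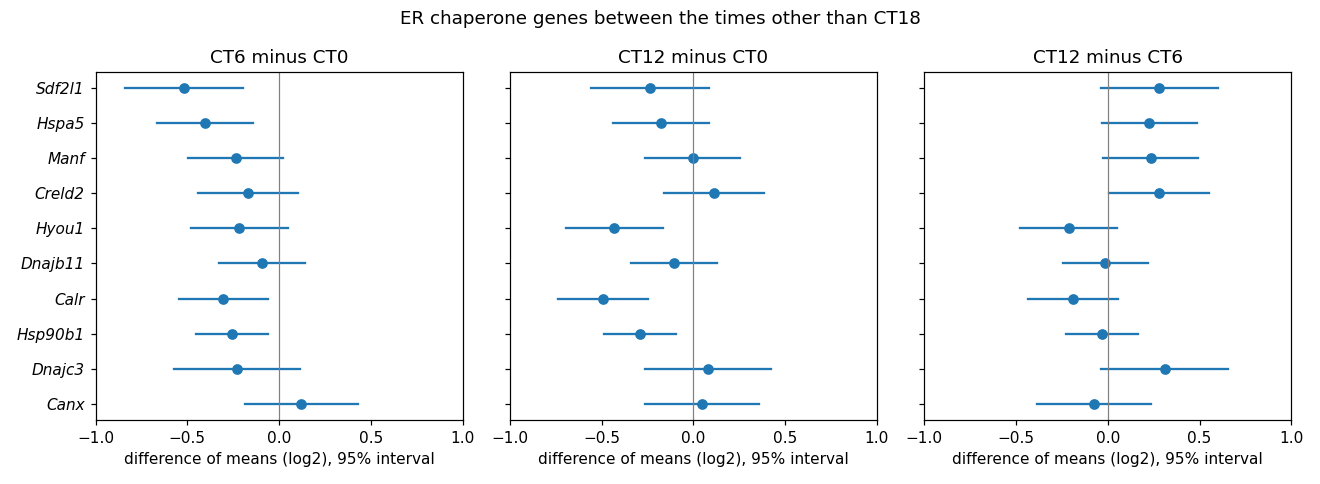
Differences of means in log2 between the times other than CT18, with 95% intervals of the fit, for the 10 genes. At CT6 against CT0, 9 genes lie left of 0; at CT12 against CT0, Calr, Hyou1 and Hsp90b1 lie farthest left; no gene was called after adjustment.

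Likeness across libraries was highest for Hspa5. Over the 12 libraries it correlated with the mean of the other 9 genes at r = 0.994, Sdf2l1 at 0.988 and Manf at 0.979, with Dnajc3 at 0.737 and Canx at 0.197 lowest. Since the genes were chosen for CT18 and the libraries fall into 4 times, these values describe the same difference again. Of all genes outside the 10, those most like their mean profile over the 12 libraries were Sfpq, an RNA-binding splicing factor (r = 0.981), Pdia3, the disulfide isomerase that works with Calr and Canx (0.977), and Spef1, a microtubule-binding protein (0.968). Chordc1, an Hsp90 co-chaperone of the cytosol, followed at 0.956, then Arid4a at 0.955, Zfp236 at 0.953 and Mkks, a chaperonin-like protein, at 0.947. Kmt5a, Plekha3 and Ankrd13c had 0.945, 0.944 and 0.941. This order changed without the library labelled CT12 mouse 11, where Spef1, Sfpq and Pdia3 had ranks 1, 2 and 3, Mkks had rank 10 and the other 6 had ranks from 11 to 40. Pdia3 is the one of these 10 genes that belongs to the ER lists described next.

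The rest of the ER machinery was compared between CT18 and CT6 in 6 lists of 134 measured genes that exclude the 10. The lists were written with earlier results of these data known, so the counts are no independent evidence. Pdia3 and Pdia6, both protein disulfide isomerases, were called higher at CT18, and the other 132 genes did not pass the limma test. In 9 of 22 alternative settings 0 of the 134 were called. The 2 calls are 1.49% of the 134, against 0.133% of all genes called and 0.0913% called higher. An unadjusted limma p under 0.05 was found for 24 higher and 3 lower genes, against 8.32% of all genes in either direction. Of the 134, 87 lay above 0, against 46.2% of all genes. The median difference was 0.61 over the 10 chaperone genes, which were chosen for it, 0.05 over the 134 and -0.02 over all genes.

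Pdia3 measured 2.33, 2.37 and 2.48 in the CT18 mice, against 1.53, 1.72 and 1.71 in the CT6 mice. Pdia6 measured 5.40, 5.53 and 5.64 in the CT18 mice, against 4.36, 4.61 and 4.51 in the CT6 mice. Both stood clear of all 9 other mice at CT18. Pdia3 was 1.67-fold higher (0.74 ± 0.09, limma adjusted p = 0.0208) and Pdia6 2.04-fold higher (1.03 ± 0.15, limma adjusted p = 0.0409, with 0.71 at its second probe). Within slides 1, 2 and 3 Pdia3 had 0.65, 0.77 and 0.80 and Pdia6 had 0.92, 1.13 and 1.04, and with slide as a block Pdia3 was called and Pdia6 was not (limma adjusted p = 0.0518). The calls depended on the libraries used: neither gene was called without CT0 mouse 1, any one CT6 mouse or any one CT18 mouse, nor without the libraries with high choroid plexus markers. Pdia6 was also not called without CT0 mouse 2, CT0 mouse 3 or CT12 mouse 10. Calls over all genes were 12 without CT0 mouse 1 and 1 to 13 without a CT6 or CT18 mouse, against 32 with all libraries. With one CT6 or CT18 mouse left out, the difference ran from 0.68 to 0.77 for Pdia3 and from 0.96 to 1.09 for Pdia6. Without the library labelled CT12 mouse 11, 7 of the 134 were called, all higher: Pdia3, Pdia6, Pdia4, Derl2, Derl3, Xbp1 and Cnpy4.

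Of the 19 disulfide isomerases and oxidases, the 17 others did not pass, among them Pdia4 at 1.02 (limma adjusted p = 0.0919) and P4hb at 0.23 (limma adjusted p = 0.57). None of the 21 sensors and transcription factors of the unfolded protein response passed, with 5 unadjusted, all higher. Xbp1, the factor made active by IRE1 splicing, had 0.75 ± 0.13 (limma adjusted p = 0.0694), Ppp1r15b 0.46, Atf6b 0.39 and Ddit3 0.24. The 22 genes of ER-associated degradation had 0 calls by limma and 6 unadjusted. Derl3 and Derl2, which help pull chains out of the ER, had 1.21 ± 0.19 (limma adjusted p = 0.0512) and 0.53 ± 0.09 (limma adjusted p = 0.0568). The 3 Derl2 probes ran from 0.20 to 0.53. Next by unadjusted limma p were Nploc4 at -0.28 and Sel1l at 0.30.

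The 30 other ER chaperones and co-chaperones had 0 calls by limma and 8 unadjusted, 7 of them higher. Those of smallest unadjusted limma p were Fkbp14 at 0.41 (0.73 at its second probe), Cnpy4 at 0.38, Uggt1 at 0.33 and Dnajc1 at 0.30. Uggt1 is the folding sensor that returns glycoproteins to Calr and Canx. A larger difference, 0.69 ± 0.26, belonged to Serpinh1. The 22 genes of the translocon and signal peptide processing had 0 calls by limma and 3 unadjusted. The highest of the named genes there were Spcs2 at 0.29, Ssr3 at 0.26, Sec61a1 at 0.24 and Sec11a at 0.18, although the second Spcs2 probe had -0.05. The 20 KDEL receptor and transport genes had 0 calls by limma and 0 unadjusted, with Sec13 at 0.34, Sec22b at 0.20, Mcfd2 at 0.18 and Tmed9 at 0.12. The Sec13 value rested on CT6 mouse 7, at 0.63, and was 0.06 without it.

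The paralogs of the 10 genes, mostly outside the ER, were compared in the same way. None of 18 measured passed the limma test and 5 had an unadjusted p under 0.05, against 8.32% of all genes in either direction. All 5 were higher at CT18. They were Dnajb1 at 0.50 ± 0.10 (limma adjusted p = 0.0982), Creld1 at 0.38, Hspa1a at 0.77, Hsph1 at 0.46 and Dnajb4 at 0.28. Without the library labelled CT12 mouse 11, Dnajb1 and Hspa1a were called, among 300 of all genes against 32 with all libraries. Set beside each ER gene's own CT18 minus CT6 difference, Sdf2l1 had 1.83 and Sdf2 0.13, Manf had 1.15 and Cdnf -0.42, and Creld2 had 0.97 and Creld1 0.38. Cdnf was dim, with means of -4.33 at CT18 and -3.91 at CT6, and its difference had an SE of 0.19. Hspa5 had 1.33 and its Hsp70 paralogs differed: Hspa1a had 0.77, Hspa2 0.14, and Hspa8 and Hspa9 each -0.03. The 3 Hspa8 probes ran from -0.03 to 0.41. Dnajb11 had 0.57, Dnajb1 0.50 and Dnajb4 0.28, while Dnajc3 had 0.61 and Dnajc7 -0.04. Hyou1 had 0.61, Hsph1 0.46 (0.63 at its second probe), Hspa4l 0.15 and Hspa4 -0.22. The 3 Hspa4 probes ran from -0.22 to 0.36. Hsp90b1 had 0.52, Hsp90aa1 0.07, Hsp90ab1 0.09 and Trap1 0.04. Calr had 0.56 and Calr3, dim at -4.36 at CT18, had -0.24. Canx and Clgn each had 0.03. The differences between paralogs were not tested.

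**Figure D5:**
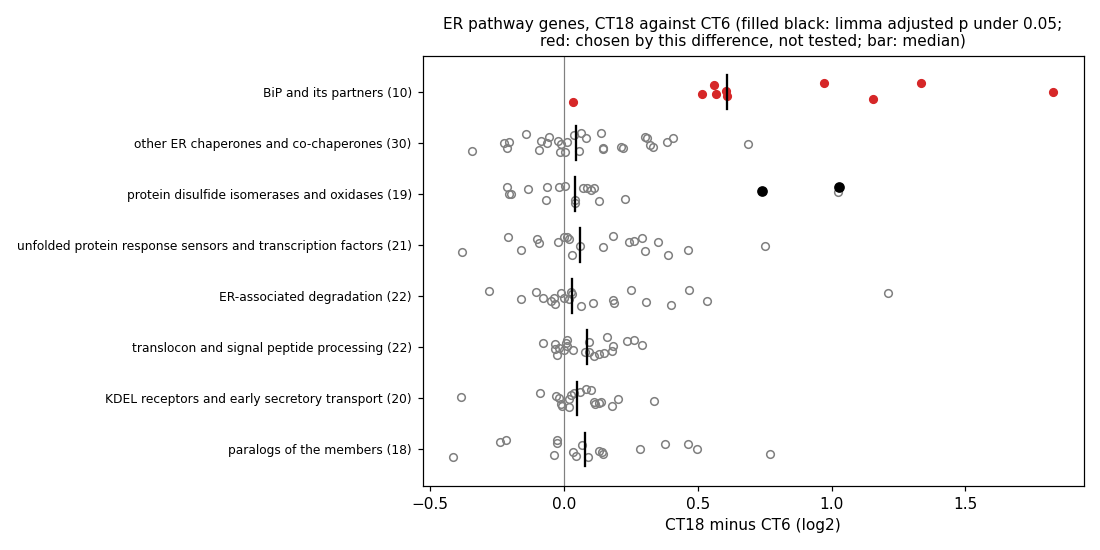
CT18 minus CT6 in log2 for the 10 ER chaperone genes (red, chosen by this difference), 6 lists of other ER genes and the paralogs; each circle is a gene, the bar a list's median and the number its measured genes. The 2 filled black circles are Pdia3 and Pdia6; the median is 0.61 for the 10 genes and between 0.03 and 0.08 for the 6 lists.

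The ERSE letters were also followed beyond the 10 genes, in a list made after values had been seen and so not tested. Of 31 other genes whose windows hold them, 14 were measured. Their CT18 excess had a median of 0.11, against -0.01 over all genes, and lay above 0 in 10 of 14, against 48.0% of all genes. In Derl3 (1.25), Pdia6 (0.98) and Syvn1 (0.23) every CT18 mouse lay above all 9 others, or 21.4% of the 14 against 2.33% of all genes. Derl3, Pdia6 and Syvn1 also belong to the ER lists above, so their values are not new. Some excesses above 0 were smaller than their SE, such as Xlr3b at 0.43 ± 1.04 and Calr4 at 0.09 ± 0.28. Acacb had the lowest excess, -0.46.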

How the data were processed

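Per the file headers, spots were read with Agilent Feature Extraction 10.7.3.1 and probe positions are in mm9. The authors deposited each array's intensity as the processed signal, which is background-subtracted, with flags for background, saturation and outliers, and a table of log2 values whose normalization is not given in the sources used here; its column medians all lay at 5.37.

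Processed signals without outlier-flagged spots were put on the log2 scale and averaged per probe. The 75th percentile of the probes that are no controls was then subtracted, array by array. A probe was kept where it was well above background on all 3 arrays of at least 1 time (33966 probes, 24090 genes), and the probe of highest mean stood for a gene. Group means of the 4 times were fitted to 12 arrays with limma 3.58.1 in R 4.3.3, with Benjamini-Hochberg adjustment over all genes and calls under 0.05; the procedure was tested on simulated data. Sequences came from RefSeq (GRCm38.p6) and were not converted to mm9.

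The genes, lists and tests were chosen with earlier results of these data known. The text names all 10 genes, the 10 most correlated others, and of each list every call and the 4 genes of smallest CT18 against CT6 p. Further genes named (Dnajb4, Serpinh1, the paralogs set beside a member, and the ERSE genes) were chosen after their values were seen. Alternatives were 2 other normalizations, normexp background correction, the deposited table, 2 probe filters, averaging of probes, another variance model, slide as a block, and leaving out libraries. The labels give no replicate numbers shared between times; each slide held 1 mouse of each time.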

Additional observations from a re-analysis of the deposited data

How the results depend on the processing

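The median CT18 excess of the 10 genes kept its direction in every setting, from 0.52 without the libraries with high choroid plexus markers to 0.65 without CT18 mouse 15, and from 0.54 to 0.65 with single libraries left out. No gene of the 10 was called between the other times in any of 23 settings. The count of other ER genes called at CT18 against CT6, 2 as reported, was 4 with quantile normalization, 4 with the deposited table, 5 with normexp, 1 with median centring, 4 with probes well above background on all 12 arrays, 5 with the trend and robust variance model, and 0 without a filter or without the libraries with high choroid plexus markers. With slide as a block it was 2, Pdia3 and Xbp1, and the limma adjusted p of Pdia6 was 0.0518. With single libraries left out it ran from 0 to 7, and was 1 without CT0 mouse 3. In those single-library settings where it was 0, calls over all genes were 1 to 13. The paralog count ran from 0 to 2. The higher counts, 7 and 2, came without CT12 mouse 11, where 300 of all genes were called against 32 as reported. The cause was not tested. The excess of Hyou1 was 0.33 under normexp, and that of Dnajb11 ran from 0.50 to 0.59. Repeating the count of genes clear of all other mice without the doubted libraries, the values of Pdia3 and Pdia6 within slides, and the value of Sec13 without CT6 mouse 7 were chosen after seeing the data. Mice of different times share no replicate numbers, so the slide, with 1 mouse of each time, was the block used for pairing; it changed no call of the 10 genes.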
